A study of Mus musculus with 6 samples.

Results

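The genes described here are 35 mouse genes of glycolysis and of the response to low oxygen, chosen by name from a fixed list and found in RNA sequencing libraries of bone marrow-derived macrophages. All 35 were matched by NCBI gene number, of 16871 genes listed in at least 1 library, and Ero1l was found under its current symbol Ero1a. The cells were derived from marrow of C57BL/6 mice aged 8 weeks, kept in culture for 7 days and treated with oxLDL, which is oxidised low-density lipoprotein, the cholesterol carrier that loads macrophages in the arterial wall with lipid. DKO cells, with 3 libraries, are labelled as knockouts of both the mitochondrial aldehyde dehydrogenase ALDH2 and the LDL receptor. LKO cells, with 3 libraries, are labelled as LDL receptor knockouts and served as the control, so that by label every library lacked the LDL receptor and every culture received oxLDL. The comparison of DKO with LKO therefore asks what further loss of ALDH2 goes with, and neither untreated cultures nor cells with an intact LDL receptor were analysed here. Nothing in the labels ties the libraries to different animals, and each p-value is therefore measured against a spread between libraries that may be technical.

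Glycolysis splits glucose into pyruvate and yields a little ATP without oxygen, and pyruvate is then either burned in mitochondria or reduced to lactate and exported. Macrophages that are activated by microbial products raise this pathway, and the transcription factor HIF, made of an oxygen-labile alpha subunit and the stable partner ARNT, drives many of its genes. When oxygen is plentiful, EGLN prolyl hydroxylases mark the alpha subunit for destruction through the VHL ubiquitin ligase. When oxygen is low, HIF binds short DNA elements near its target genes, which include glucose transporters, glycolytic enzymes, the growth factor gene Vegfa, collagen-modifying enzymes and the hydroxylases themselves.

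Each library held between 10936563 and 10987584 expected counts in DKO and between 10760625 and 10930139 in LKO. The targeted gene Aldh2 stood at 7.13 ± 0.181 FPKM in DKO and at 241 ± 6.83 FPKM in LKO (SD, n = 3 each), and its DKO libraries lay far below its LKO libraries. A permutation test over those 6 values, exact and two-sided, reached p = 0.1, below which 3 against 3 libraries cannot go. All 10 macrophage markers were present and summed to between 11182 and 12356 FPKM in DKO, against between 9997 and 10705 FPKM in LKO. Lyz2 alone averaged 7616 ± 580 FPKM in DKO and 6105 ± 337 FPKM in LKO, which is most of each sum. Of the 10 macrophage markers 5 rose in DKO and 1 fell. The marker that fell was Adgre1, at 1755 FPKM in DKO and 1939 FPKM in LKO. Markers of other cells also moved: 8 of 12 tested neutrophil markers fell, 7 of 9 tested stromal and fibroblast markers rose, and 4 of 5 tested B cell and T cell markers fell, with no call in the other direction within these lists. Erythroid and dendritic markers summed to at most 2.94 FPKM in DKO and 3.67 FPKM in LKO. Of 2 tested dendritic markers 1 fell, and the 1 tested erythroid marker did not pass. In bulk RNA such as this, fewer cells of a type and less RNA per cell cannot be told apart.

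Of the 21 genes of glycolysis and its control, Hk2 alone passed, and of the 14 hypoxia response genes Ndrg1 and P4ha1 passed. Of the 35 genes together, all of which had enough counts to be tested, Ndrg1 and Hk2 fell and P4ha1 rose in DKO, and 32 did not pass an edgeR quasi-likelihood test at an adjusted p of 0.05. Across all 11809 genes tested, 14.3% were called by the same rule, 7.42% higher and 6.88% lower, and the 3 calls among the 35 genes are 8.57%, a difference that was not tested. The median log2 fold change was -0.05 over the 35 genes and 0.00018 over all genes tested. Estimates were negative for 25 of the 35 genes and for 5896 of all 11809 genes tested, a difference that was not tested. Without DKO replicate 2 the median of the 35 genes was -0.022, and without LKO replicate 1 it was -0.027. For 24 of the 35 genes the 95% confidence interval of the fold change lay wholly within 1.25-fold in either direction, against 53.9% of all genes tested, and 19 of these 24 were among the 21 genes of glycolysis and its control. The other 11 were Ndrg1, P4ha1, Car9, Ddit4, Vegfa and Slc16a3 and the low genes Adm, Ankrd37, Aldoc, Egln3 and P4ha2. The width of an interval also depends on counts, and the genes tested were not matched to the 35 genes by count. The values of the 3 DKO and 3 LKO libraries did not overlap for 14 of the 35 genes, 4 of them higher and 10 lower in DKO, against 29.6% of all genes tested, 13.6% higher and 16.0% lower.

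**Figure D1:**
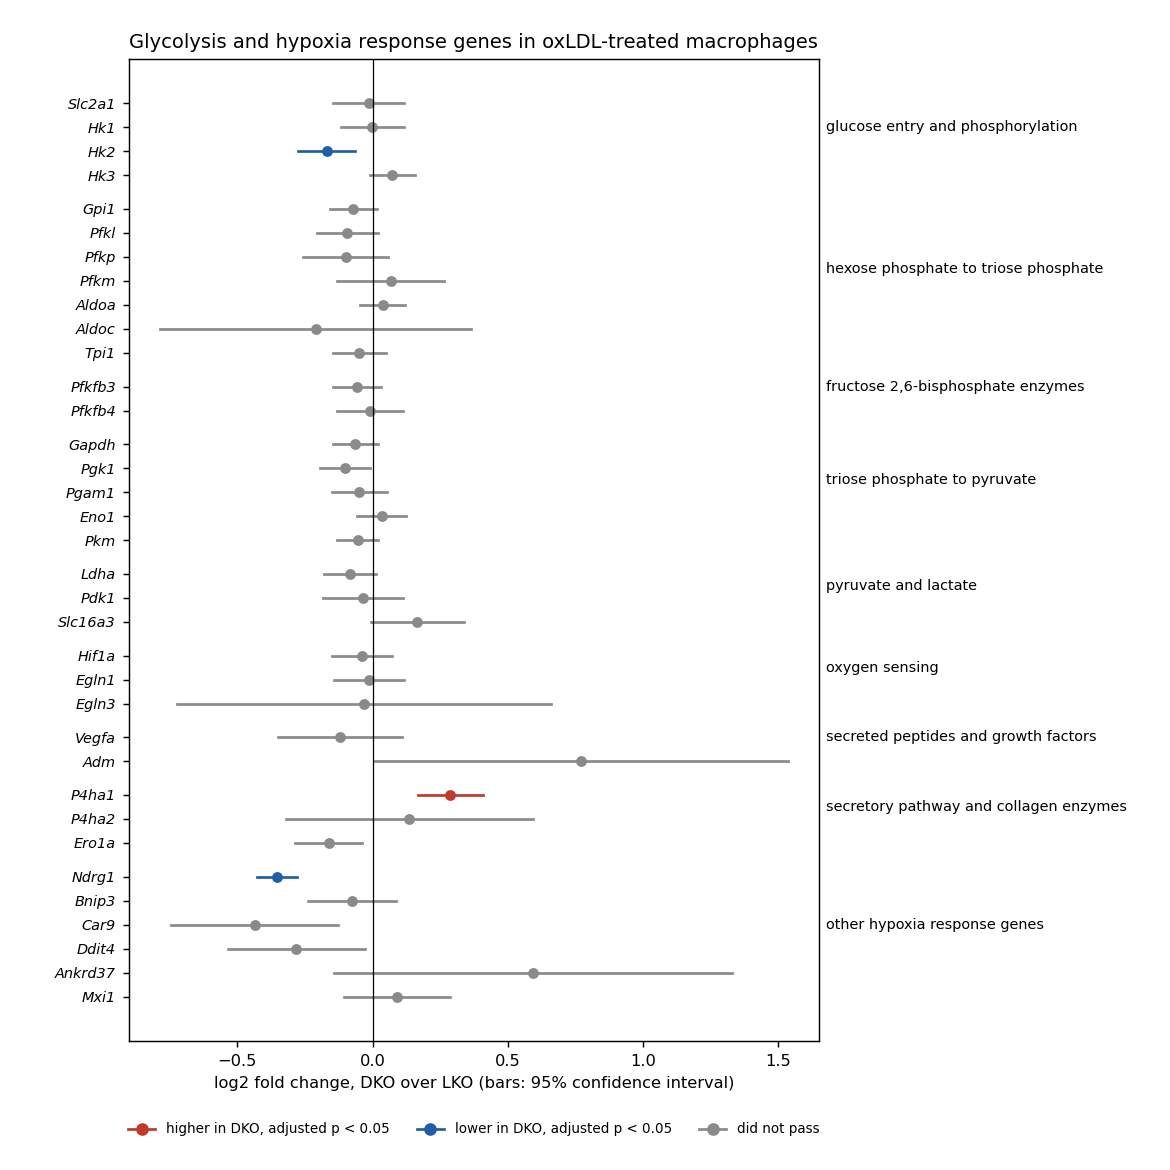
Each point is the log2 fold change of a gene (horizontal axis, DKO over LKO, edgeR) with its 95% confidence interval as a bar, and genes are grouped down the page by role. Most glycolytic genes sit close to 0 with short bars, though the bars of Slc16a3 and Pfkm are longer and that of Aldoc is long. The called gene P4ha1 lies to the right and the called genes Ndrg1 and Hk2 to the left. Car9, Ddit4 and Ero1a, which did not pass, also lie to the left. The long bars belong to genes of low count such as Adm, Ankrd37, Aldoc and Egln3.

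HIF binds the core letters ACGTG or GCGTG, and the start regions of these genes were searched for them on both strands (CACGT and CACGC when read on the other strand). The windows came from RefSeq on build GRCm38.p6 and ran from 250 bases before to 50 bases after a gene's start. Of the 35 genes, 34 (all but Ndrg1) matched at least 1 window, 50 windows in all, and 41 of these windows (82%) held at least 1 such core. The share was 61.5% over 11991 windows of tested genes and 43.8% over all 32851 windows of the table. By gene, 32 of 34 had a core in at least 1 window, against 6368 of 9476 tested genes with windows, and a gene with several starts has more chances. The palindrome CACGTG, which holds the core on both strands and is also read by other factors, was in 5 of the 50 windows, against 10.1% of those of tested genes. A match to 5 letters is a description of the window and not a binding site. The windows of the called genes P4ha1, which rose, and Hk2, which fell, are shown. Those of Car9 and Ero1a, the nearest to the threshold among genes that did not pass, are shown as well. Each runs 5′ to 3′ on the strand of the gene, and capitals mark the cores on either strand. The P4ha1 window is chr10:59323046-59323345 on the plus strand, and that of Hk2 is chr6:82774405-82774704 on the minus strand. The Car9 window is chr4:43506776-43507075 on the plus strand, and that of Ero1a is chr14:45318523-45318822 on the minus strand.
P4ha1: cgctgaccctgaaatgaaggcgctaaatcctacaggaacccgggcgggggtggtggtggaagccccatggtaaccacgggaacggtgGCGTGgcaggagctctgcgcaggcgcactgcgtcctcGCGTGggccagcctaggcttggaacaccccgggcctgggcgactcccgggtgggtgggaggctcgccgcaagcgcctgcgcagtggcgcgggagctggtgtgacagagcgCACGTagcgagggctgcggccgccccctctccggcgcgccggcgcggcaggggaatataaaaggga
Hk2: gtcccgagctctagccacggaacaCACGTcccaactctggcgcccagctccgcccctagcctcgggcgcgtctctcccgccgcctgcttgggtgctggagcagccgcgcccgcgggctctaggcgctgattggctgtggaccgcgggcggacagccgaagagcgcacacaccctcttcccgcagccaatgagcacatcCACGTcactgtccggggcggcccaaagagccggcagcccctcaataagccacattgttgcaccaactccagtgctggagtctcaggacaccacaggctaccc
Car9: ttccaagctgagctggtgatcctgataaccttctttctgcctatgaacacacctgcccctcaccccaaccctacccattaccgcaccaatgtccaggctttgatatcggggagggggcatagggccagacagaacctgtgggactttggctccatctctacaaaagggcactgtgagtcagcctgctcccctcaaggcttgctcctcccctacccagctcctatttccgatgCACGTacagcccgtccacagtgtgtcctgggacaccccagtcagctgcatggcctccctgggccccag
Ero1a: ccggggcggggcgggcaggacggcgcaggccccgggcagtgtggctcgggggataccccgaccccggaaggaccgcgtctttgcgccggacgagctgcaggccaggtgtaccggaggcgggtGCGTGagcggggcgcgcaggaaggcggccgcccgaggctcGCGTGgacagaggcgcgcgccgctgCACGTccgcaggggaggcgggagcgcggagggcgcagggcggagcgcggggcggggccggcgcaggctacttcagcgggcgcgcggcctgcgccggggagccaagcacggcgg
The P4ha1 and Ero1a windows each held the core at 3 places, that of Hk2 at 2 places and that of Car9 at 1 place. All 4 windows thus carried the core, as did 41 of the 50 windows of the listed genes.

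Glucose enters macrophages through GLUT1, encoded by Slc2a1, and is trapped in the cell when a hexokinase phosphorylates it. Slc2a1 stood at 14.77, 15.70 and 14.77 FPKM in the DKO libraries and at 15.70, 15.23 and 15.09 FPKM in the LKO libraries. The groups overlapped, with a fold change of 0.99 (95% confidence interval 0.904 to 1.08, edgeR adjusted p = 0.929). Hexokinase transcripts were mostly Hk3, the isoform typical of myeloid cells. Hk3 took 78.7% ± 0.776 of the summed hexokinase FPKM in DKO and 76.9% ± 0.109 in LKO. Hk1, the widely expressed isoform, took 12.3% ± 0.650 in DKO and 12.7% ± 0.304 in LKO, and Hk2, an isoform that hypoxia and activation induce in many cells, took 9.02% ± 0.126 in DKO and 10.5% ± 0.203 in LKO (SD, n = 3 each).

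Hk2 was the only glycolytic gene of the list to pass. It stood at 15.86, 15.87 and 16.49 FPKM in the DKO libraries and at 17.86, 18.05 and 18.77 FPKM in the LKO libraries. Every DKO library lay below every LKO library, and the fold change was 0.889 (95% confidence interval 0.825 to 0.956, edgeR adjusted p = 0.0271). This call was fragile. It was lost without DKO replicate 1 (edgeR adjusted p = 0.0918), DKO replicate 2 (0.105), LKO replicate 2 (0.0684) or LKO replicate 3 (0.0962). It was also lost in DESeq2 (adjusted p = 0.0758) and in every limma fit (adjusted p between 0.0524 and 0.0602). Hk3 was high in every library, at 140.32, 140.33 and 139.96 FPKM in DKO and 132.08, 134.74 and 135.30 FPKM in LKO. Its groups did not overlap either, yet its fold change of 1.05 (95% confidence interval 0.993 to 1.11) did not pass (edgeR adjusted p = 0.264). Hk1 had a fold change of 1.0 (95% confidence interval 0.923 to 1.08). The share of Hk2 among hexokinase FPKM was 1.43 percentage points lower in DKO, with no overlap between groups, and the same exact permutation test again returned its minimum, p = 0.1. The summed hexokinase level was 178 ± 1.498 FPKM in DKO and 174 ± 2.04 FPKM in LKO.

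**Figure D2:**
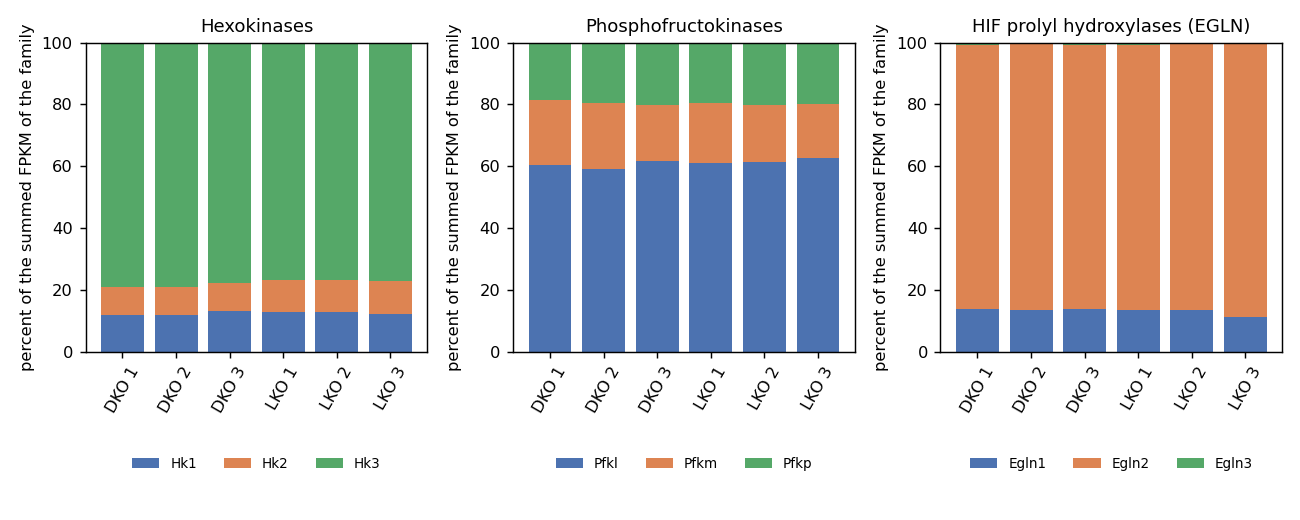
Stacked bars give the share of each isoform (vertical axis, percent of the family's summed FPKM) in each of the 3 DKO and 3 LKO libraries. Hk3, Pfkl and Egln2 make up most of their families in every library, and the Hk2 band is thinner in the 3 DKO bars.

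The steps from hexose phosphate to triose phosphate showed no gene that passed. Gpi1, which interconverts glucose and fructose phosphates, averaged 169.8 ± 2.15 FPKM in DKO and 179.7 ± 7.20 FPKM in LKO. Phosphofructokinase makes the committed step of the pathway, and its liver-type subunit Pfkl was the main form, with 60.4% ± 1.20 of the family's FPKM in DKO and 61.7% ± 0.891 in LKO. Pfkl stood at 18.52, 17.80 and 18.77 FPKM in DKO and at 19.66, 19.98 and 19.57 FPKM in LKO. These groups did not overlap, but the fold change of 0.938 (95% confidence interval 0.866 to 1.01) did not pass (edgeR adjusted p = 0.304). The platelet form Pfkp averaged 5.89 ± 0.236 FPKM in DKO and 6.36 ± 0.227 FPKM in LKO, and the muscle form Pfkm 6.16 ± 0.476 FPKM in DKO and 5.92 ± 0.377 FPKM in LKO. Both have exons that overlap a gene on the opposite strand, Pitrm1 for Pfkp and Senp1 for Pfkm, and the strand setting of the counts is not given in the sources used here. In DKO, Pitrm1 averaged 493 counts against 262 for Pfkp, and Senp1 358 against 196 for Pfkm. Gapdh, Hk1, Hk3 and Tpi1 also overlap genes on the opposite strand, Iffo1, Hk1os, Unc5a and Spsb2, but these had far fewer counts than their partners. The nearest in count was Spsb2, which averaged 271 in DKO against 2047 for Tpi1.

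Aldolase cleaves the fructose bisphosphate into triose phosphates. Aldoa made up nearly all of it, at 587 ± 1.61 FPKM in DKO and 576 ± 20.9 FPKM in LKO, while the brain-enriched Aldoc averaged 0.657 ± 0.175 FPKM in DKO and 0.763 ± 0.132 FPKM in LKO. The fold change of Aldoa was 1.03 (95% confidence interval 0.969 to 1.09, edgeR adjusted p = 0.619). Tpi1, which interconverts the triose phosphates, averaged 117 ± 4.70 FPKM in DKO and 122 ± 3.64 FPKM in LKO. The PFKFB enzymes make and remove the allosteric activator of phosphofructokinase. Pfkfb3, the form that favours its synthesis and that hypoxia induces, stood at 67.41, 67.11 and 67.27 FPKM in DKO and at 74.05, 69.01 and 69.84 FPKM in LKO. All 3 DKO values lay below the LKO values, and the fold change of 0.961 (95% confidence interval 0.904 to 1.02) did not pass (edgeR adjusted p = 0.438). Pfkfb4 averaged 17.98 ± 0.311 FPKM in DKO and 18.2 ± 0.734 FPKM in LKO.

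The lower part of the pathway, where ATP and NADH are made, also held no call. Gapdh was the most abundant gene of the list and ranked 32 of 16871 genes by mean FPKM. It stood at 1329, 1256 and 1259 FPKM in DKO and at 1266, 1371 and 1376 FPKM in LKO. The groups overlapped, and the fold change was 0.957 (95% confidence interval 0.904 to 1.01, edgeR adjusted p = 0.337). Pgk1, the kinase that makes the pathway's early ATP, stood at 140.22, 135.45 and 131.36 FPKM in DKO and at 152.71, 143.92 and 143.62 FPKM in LKO. Its DKO values were all lower, its interval of 0.873 to 0.994 lay below 1, and after adjustment over all genes it did not pass (edgeR adjusted p = 0.152). Pkm, the pyruvate kinase of macrophages, stood at 466.20, 466.61 and 461.40 FPKM in DKO and at 482.94, 479.21 and 497.88 FPKM in LKO. Here too the groups did not overlap and the test did not pass, with a fold change of 0.962 (95% confidence interval 0.913 to 1.01, edgeR adjusted p = 0.378). Pkm totals do not separate its M1 and M2 splice forms. Pgam1 averaged 131 ± 7.501 FPKM in DKO and 137 ± 3.60 FPKM in LKO, and Eno1 205 ± 3.70 FPKM in DKO and 202 ± 6.89 FPKM in LKO.

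Pyruvate is turned to lactate by Ldha, kept from oxidation by Pdk1, a kinase that switches off pyruvate dehydrogenase, and lactate leaves through the transporter Slc16a3. Ldha stood at 208.45, 197.23 and 189.74 FPKM in DKO and at 218.16, 215.16 and 202.84 FPKM in LKO. The groups overlapped, with a fold change of 0.943 (95% confidence interval 0.882 to 1.01, edgeR adjusted p = 0.265). Pdk1 averaged 7.73 ± 0.232 FPKM in DKO and 7.97 ± 0.728 FPKM in LKO. Slc16a3 had the highest estimate of the glycolytic genes, at 10.20, 9.58 and 10.96 FPKM in DKO and 8.56, 9.86 and 9.28 FPKM in LKO. Its groups overlapped, and the fold change of 1.12 (95% confidence interval 0.996 to 1.26) did not pass (edgeR adjusted p = 0.211).

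Along the pathway as a whole, the 18 genes from Slc2a1 to Slc16a3 summed to 3526 ± 57.3 FPKM in DKO and 3632 ± 86.3 FPKM in LKO, a ratio of 0.971. By step, the ratio of mean FPKM in DKO to that in LKO ran from 0.925 at phosphoglycerate kinase to 1.11 at the lactate exporter. On this scale, which is per transcript length, the exporter, the transporter and phosphofructokinase were the lowest steps in both groups, and GAPDH, aldolase and pyruvate kinase the highest. Counts of 10 of the 35 genes were fractional in at least 1 library, and among these were Gapdh, Gpi1, Ldha, Pfkl, Pfkfb3 and Pdk1. Gapdh and Ldha have many processed pseudogenes in the mouse, and how the authors' counting treated reads that match several genes is not given in the sources used here. The levels of such genes are therefore uncertain.

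**Figure D3:**
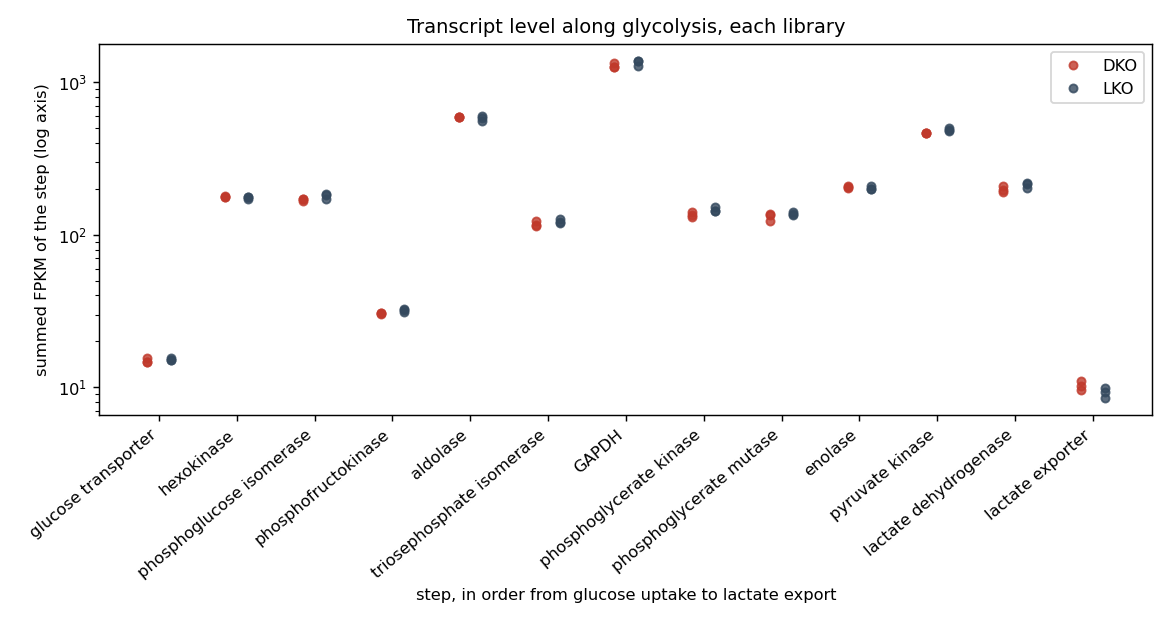
Each point is a library, with the summed FPKM of the enzymes of a step (log axis) against the steps in pathway order, DKO on the left and LKO on the right of each pair. The pairs sit almost level at every step, from about 10.2 FPKM at the lactate exporter in DKO to 1281 FPKM at GAPDH in DKO.

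The 3 oxygen sensing genes among the 35 did not pass. Hif1a, the oxygen-labile alpha subunit of HIF, stood at 29.17, 29.23 and 31.06 FPKM in DKO and at 32.77, 31.01 and 28.62 FPKM in LKO. The groups overlapped, and its fold change was 0.973 (95% confidence interval 0.901 to 1.05, edgeR adjusted p = 0.718). HIF activity is set mainly by the stability of this protein, which was not measured. Egln1, the main hydroxylase of the alpha subunit, averaged 13.6 ± 0.131 FPKM in DKO and 13.8 ± 0.806 FPKM in LKO. Egln3, a hydroxylase that hypoxia strongly induces, was scarcely expressed, at 0.573 ± 0.268 FPKM in DKO and 0.590 ± 0.0458 FPKM in LKO, and its interval of 0.605 to 1.58 was wide.

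Among the wider set of oxygen sensing genes, Egln2, a further hydroxylase of the family, fell in DKO. Egln2 stood at 83.70, 85.89 and 83.10 FPKM in DKO and at 92.78, 90.36 and 101.11 FPKM in LKO, and made up most of the family, with 85.6% ± 0.469 of its FPKM in DKO and 86.8% ± 1.29 in LKO. Every DKO value was below every LKO value, with a fold change of 0.896 (95% confidence interval 0.835 to 0.961, edgeR adjusted p = 0.0302). The call was lost without DKO replicate 1 (edgeR adjusted p = 0.0914), DKO replicate 2 (0.0636), DKO replicate 3 (0.0973) or LKO replicate 3 (0.169), and in the limma fits (adjusted p between 0.0623 and 0.108). Vhl averaged 10.2 ± 0.835 FPKM in DKO and 9.88 ± 0.306 FPKM in LKO, and Arnt 22.7 ± 1.76 FPKM in DKO and 21.9 ± 1.02 FPKM in LKO. Hif1an, the asparagine hydroxylase that blocks HIF activity, averaged 9.0 ± 0.463 FPKM in DKO and 8.8 ± 0.01 FPKM in LKO. Epas1, which encodes the alternative alpha subunit, was at most 0.32 FPKM in DKO and 0.29 FPKM in LKO. None of these 4 genes passed (edgeR adjusted p between 0.578 and 0.75).

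Vegfa and Adm encode secreted factors that act on blood vessels. Vegfa stood at 4.53, 4.39 and 5.65 FPKM in DKO and at 4.79, 5.47 and 5.86 FPKM in LKO. Its groups overlapped, with a fold change of 0.919 (95% confidence interval 0.784 to 1.08, edgeR adjusted p = 0.544). Adm, which encodes adrenomedullin, was low, at 0.82, 1.07 and 1.01 FPKM in DKO and at 0.41, 0.71 and 0.55 FPKM in LKO. The DKO values were all higher, but at between 6.20 and 16.0 expected counts a library the fold change of 1.70 had a 95% confidence interval of 1.002 to 2.90 and did not pass (edgeR adjusted p = 0.192).

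P4ha1 was the only gene of the list that rose. It encodes the catalytic subunit of the collagen prolyl hydroxylase, which stabilises collagen in the endoplasmic reticulum and is a known HIF target. P4ha1 stood at 20.28, 22.37 and 22.55 FPKM in the DKO libraries and at 17.81, 17.26 and 18.74 FPKM in the LKO libraries. Every DKO library was above every LKO library, and the fold change was 1.22 (95% confidence interval 1.12 to 1.33, edgeR adjusted p = 0.00127). It passed in every alternative fit at 0.05 (adjusted p between 0.00107 and 0.0488). Its relative P4ha2 averaged 1.29 ± 0.257 FPKM in DKO and 1.18 ± 0.0907 FPKM in LKO and did not pass (edgeR adjusted p = 0.766). Stromal and fibroblast markers, collagen genes among them, summed to between 73.3 and 97.9 FPKM in DKO, against between 45.4 and 51.8 FPKM in LKO, and none of the 11 was at 0. Of these, Col1a1 averaged 18.6 ± 2.53 FPKM in DKO and 9.41 ± 1.26 FPKM in LKO. Their part in the P4ha1 difference was not tested. Ero1a, an oxidase that forms disulphide bonds in the same compartment, stood at 9.66, 9.73 and 9.68 FPKM in DKO and at 10.88, 10.89 and 11.03 FPKM in LKO. Its groups did not overlap and lay in the direction opposite to P4ha1, with a fold change of 0.893 (95% confidence interval 0.82 to 0.973), which did not pass after adjustment (edgeR adjusted p = 0.0721).

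Ndrg1 had the smallest adjusted p of the 35 genes. It is a cytoplasmic stress gene that hypoxia, metals and differentiation raise in many cells, and it was very abundant here, at rank 118 of 16871 genes, close to Aldoa at rank 119. Ndrg1 stood at 510.1, 520.4 and 500.2 FPKM in the DKO libraries and at 645, 662 and 664 FPKM in the LKO libraries. The gap between the groups was far wider than the spread within them, with a fold change of 0.783 (95% confidence interval 0.743 to 0.825, edgeR adjusted p = 3.82e-07). The call held in every alternative fit (adjusted p at most 0.00528). Ndrg1 took between 0.146% and 0.152% of all counts in DKO, against between 0.188% and 0.194% in LKO. The 34 other genes together took between 0.727% and 0.744% in DKO, against between 0.747% and 0.767% in LKO. In the same libraries the neutrophil markers, none of the 14 at 0, summed to between 380.4 and 423 FPKM in DKO, against between 588 and 648 FPKM in LKO. B cell and T cell markers summed to between 79.5 and 87.5 FPKM in DKO, against between 103 and 115 FPKM in LKO. Their part in the lower Ndrg1 and Hk2 values was not tested.

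**Figure D4:**
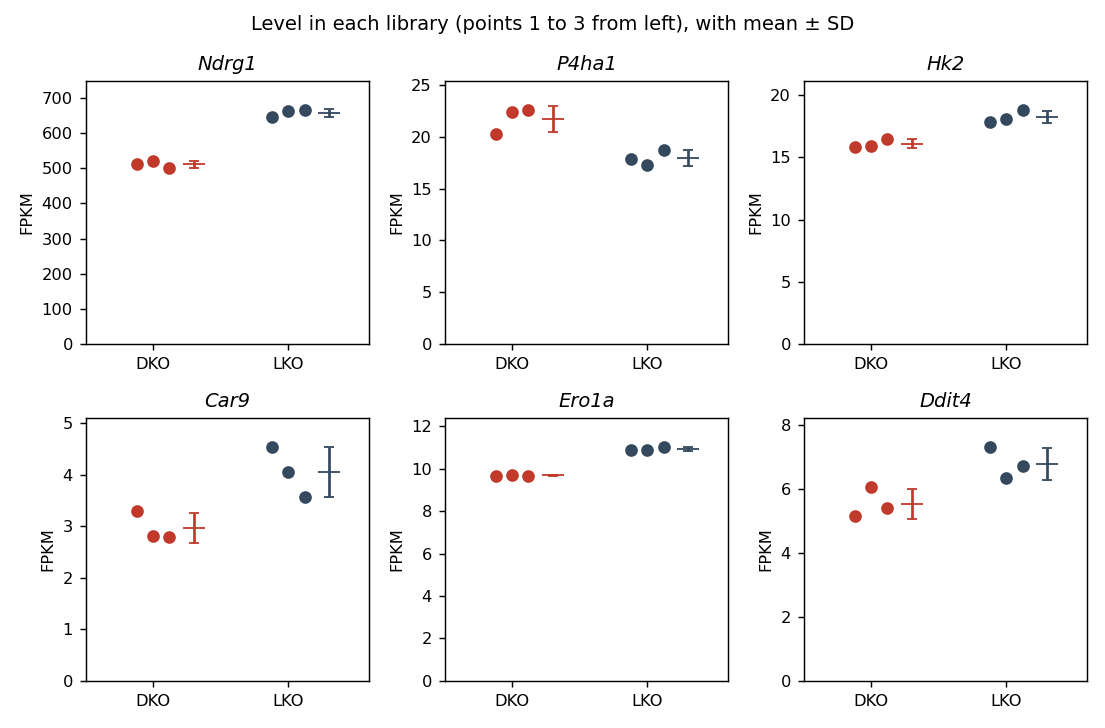
Points are the FPKM of each library, with DKO left and LKO right in each panel, and the mark beside them is the mean with its SD (n = 3). Ndrg1, Hk2, Car9, Ero1a and Ddit4 lie lower in all 3 DKO libraries and P4ha1 lies higher, and the panels of Car9 and Ddit4 show a wider spread than that of Ero1a.

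The other hypoxia response genes were less abundant and did not pass. Car9, a membrane carbonic anhydrase used as a hypoxia marker in tumours, stood at 3.30, 2.81 and 2.80 FPKM in DKO and at 4.54, 4.06 and 3.56 FPKM in LKO. All DKO values were lower, and the fold change of 0.739 (95% confidence interval 0.597 to 0.915) missed the threshold narrowly (edgeR adjusted p = 0.0531). It passed without LKO replicate 3 (edgeR adjusted p = 0.0368) and in no other alternative. The adjusted p was 0.258 in DESeq2, and 0.191 in edgeR without LKO replicate 1. Ddit4, an inhibitor of mTORC1 signalling under stress, stood at 5.15, 6.05 and 5.40 FPKM in DKO and at 7.31, 6.33 and 6.70 FPKM in LKO. Its groups did not overlap, and the fold change of 0.822 (95% confidence interval 0.69 to 0.981) did not pass (edgeR adjusted p = 0.141). Bnip3, a receptor for the removal of mitochondria, averaged 15.6 ± 1.40 FPKM in DKO and 16.6 ± 0.741 FPKM in LKO, with overlapping groups (edgeR adjusted p = 0.607). Mxi1, an antagonist of MYC, averaged 3.67 ± 0.348 FPKM in DKO and 3.46 ± 0.216 FPKM in LKO. Ankrd37 was at 1.62, 1.22 and 1.32 FPKM in DKO and at 0.91, 1.03 and 0.83 FPKM in LKO. Its DKO values were all higher, but with at most 16 counts a library it did not pass (edgeR adjusted p = 0.316), and its exons overlap the far more abundant Ufsp2 on the opposite strand.

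Beyond the 35 genes, a list of 40 other genes of glycolysis and pyruvate use had 32 members with enough counts to test. Fbp1 rose, Eno3 fell and 30 did not pass, so that 6.25% were called, against 14.3% of all genes tested, and the median log2 fold change of the list was -0.07. Fbp1, the bisphosphatase that reverses the phosphofructokinase step in gluconeogenesis, stood at 3.10, 3.43 and 3.61 FPKM in DKO and at 0.62, 1.13 and 0.89 FPKM in LKO. Every DKO library was above every LKO library, with a fold change of 3.84 (95% confidence interval 2.76 to 5.36, edgeR adjusted p = 3.02e-06). Eno3, the muscle-type enolase, stood at 2.76, 3.08 and 2.10 FPKM in DKO and at 5.31, 5.68 and 5.58 FPKM in LKO, with a fold change of 0.492 (95% confidence interval 0.391 to 0.618, edgeR adjusted p = 8.77e-05). Both kept their calls in every alternative fit at 0.05 (adjusted p at most 0.00532 and 0.0136). Per transcript length, Fbp1 stood far below the summed phosphofructokinases, which averaged 30.4 FPKM in DKO and 32.0 FPKM in LKO, and Eno3 far below Eno1. Ldhb, the lactate dehydrogenase that favours pyruvate, stood at 9.69, 10.91 and 10.63 FPKM in DKO and at 12.78, 13.15 and 12.49 FPKM in LKO and narrowly missed the threshold (edgeR adjusted p = 0.0547), while it passed in all limma fits (adjusted p at most 0.0442). It did not pass in DESeq2 (adjusted p = 0.269), in any edgeR fit with a library left out (0.0708 to 0.189) or with the replicate block (0.0725). The glucose transporter gene Slc2a3 and the lactate transporter gene Slc16a1 were low, at 1.87 and 0.653 FPKM in DKO and 2.18 and 0.693 FPKM in LKO, and did not pass (edgeR adjusted p = 0.439 and 0.877).

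In a list of 60 other hypoxia response and oxygen sensing genes, 48 could be tested, of which 6 rose, 8 fell and 34 did not pass. The share called, 29.2%, was above the 14.3% of all genes, with changes in both directions and a median log2 fold change of 0.06. The count fell to 7 of 48 without DKO replicate 1, where 1363 of all 11953 genes tested were called. It fell to 8 of 48 without DKO replicate 3, where 1175 of 11966 were called. DESeq2 called 9 of 59, against 1141 of all 16832. Cxcr4, a chemokine receptor found on marrow progenitors, B cells and neutrophils as well as macrophages, fell most, at 5.61, 4.58 and 4.03 FPKM in DKO and 11.34, 13.11 and 13.15 FPKM in LKO. Its groups lay far apart, with a fold change of 0.382 (95% confidence interval 0.323 to 0.452, edgeR adjusted p = 2.2e-08). Neutrophil and B cell markers were lower in the same libraries, by the sums given beside Ndrg1, and their part in this difference was not tested. Ak4, a mitochondrial adenylate kinase, fell as well, at 0.64, 0.83 and 0.68 FPKM in DKO and 1.34, 1.23 and 1.26 FPKM in LKO (fold change 0.565, edgeR adjusted p = 0.00121), and its call was lost in limma with a pseudocount of 0.1 (adjusted p = 0.0504).

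Further genes that fell were regulators and enzymes of mixed kinds. The transcription factor gene Ets1 averaged 8.11 ± 0.585 FPKM in DKO and 10.5 ± 0.250 FPKM in LKO (fold change 0.776, edgeR adjusted p = 0.000357), and Ppfia4 10.8 ± 0.714 FPKM in DKO and 13.3 ± 0.581 FPKM in LKO (fold change 0.819, edgeR adjusted p = 0.00182). Of the alternatives, limma with no filter gave Ppfia4 an adjusted p of 0.0591, which ended its call. Lox, which crosslinks collagen, averaged 7.23 ± 0.781 FPKM in DKO and 8.62 ± 0.440 FPKM in LKO (fold change 0.831, edgeR adjusted p = 0.0117), in the direction opposite to P4ha1 and Col1a1. The Lox call was lost without DKO replicate 1 (edgeR adjusted p = 0.0613) or DKO replicate 3 (0.0712), in DESeq2 (0.0638) and in the limma fits (0.105 to 0.196). Siah2, a ubiquitin ligase that degrades EGLN proteins, averaged 8.38 ± 0.406 FPKM in DKO and 10.4 ± 0.945 FPKM in LKO (fold change 0.808, edgeR adjusted p = 0.0158). Hif3a, an inhibitory alpha subunit of the HIF family, averaged 1.04 ± 0.05 FPKM in DKO and 1.43 ± 0.112 FPKM in LKO (fold change 0.73, edgeR adjusted p = 0.02). The Siah2 call was lost without DKO replicate 1 (edgeR adjusted p = 0.0503), DKO replicate 3 (0.0702) or LKO replicate 2 (0.102), and the Hif3a call without DKO replicate 1 (0.0627), DKO replicate 2 (0.077) or LKO replicate 3 (0.0776). DESeq2 called neither (adjusted p = 0.0989 for Siah2 and 0.132 for Hif3a), the limma fits did not call Hif3a (0.105 to 0.162), and limma without a filter did not call Siah2 (0.0937).

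Of the genes that rose, Cited2 had the smallest adjusted p. Its product competes with HIF for a coactivator and is itself induced by HIF. Cited2 stood at 68.33, 70.52 and 66.84 FPKM in DKO and at 50.43, 58.98 and 57.61 FPKM in LKO, with a fold change of 1.24 (95% confidence interval 1.14 to 1.35, edgeR adjusted p = 0.000492). The immediate early factor gene Klf10 averaged 14.7 ± 1.12 FPKM in DKO and 11.7 ± 0.436 FPKM in LKO (fold change 1.27, edgeR adjusted p = 0.00121). Also called were Plod1, a collagen lysyl hydroxylase, Tfrc, the transferrin receptor, and Angptl4, a secreted inhibitor of lipoprotein lipase, with fold changes of 1.13, 1.13 and 1.88 (edgeR adjusted p = 0.0251, 0.0295 and 0.0406). Each of these 3 calls was lost without DKO replicate 1 (edgeR adjusted p = 0.0634, 0.113 and 0.182) and without DKO replicate 3 (0.0935, 0.135 and 0.0798). The Plod1 call was also lost without DKO replicate 2 (0.0624), LKO replicate 1 (0.0884) or LKO replicate 3 (0.062), the Tfrc call without LKO replicate 2 (0.0997) or LKO replicate 3 (0.123), and the Angptl4 call without LKO replicate 1 (0.134) or LKO replicate 2 (0.135). None of the 3 passed in the limma fits (adjusted p at least 0.0749), DESeq2 called only Plod1 of them (0.0391, against 0.0826 for Tfrc and 0.226 for Angptl4), and Angptl4 was also lost without a count filter (0.0503) and with the replicate block (0.0548). Among HIF targets of this list that did not pass were Bnip3l, Kdm3a, Gys1 and Fam162a (edgeR adjusted p = 0.146, 0.776, 0.991 and 0.206). The groups of Kdm3a and Gys1 overlapped. Those of Bnip3l did not and were higher in DKO (fold change 1.09), and those of Fam162a did not and were lower (fold change 0.836).

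**Figure D5:**
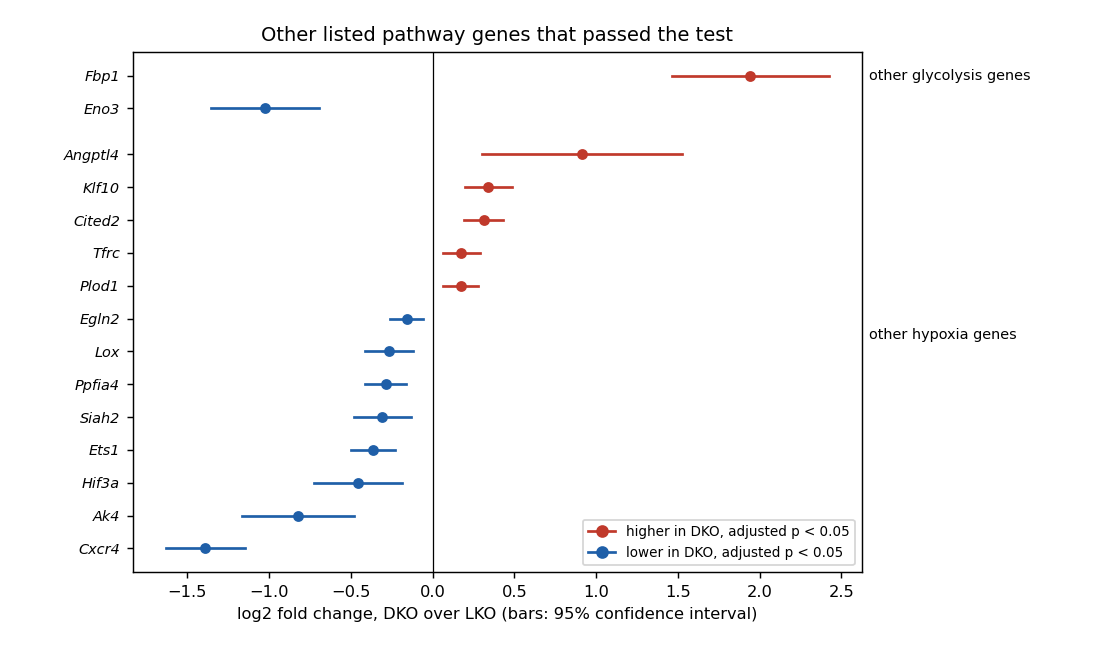
Points are log2 fold changes (horizontal axis, DKO over LKO, edgeR) with 95% confidence intervals for genes of the 2 wider lists that passed, ordered by fold change within a list. Fbp1 lies farthest to the right and Cxcr4 farthest to the left, and of the others only Eno3 lies beyond 1 log2 unit from 0.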

How the data were processed

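RNA was sequenced from oxLDL-treated macrophages in 3 DKO and 3 LKO libraries, grouped by their labels. Per the file headers, the authors deposited an expected count, an FPKM value (scaled to transcript length and library size) and a transcript length for each gene. The submitters' processing notes name Bowtie 0.12.2 and build mm8. How reads were counted, their length and whether strand was used is not given in the sources used here. No deposited FPKM is below 0.01, so genes that a file leaves out were taken as 0. Symbols came from RefSeq (GRCm38), used for names and for start regions with their own build, and 16832 of 16871 gene numbers matched. Overlaps between genes came from the exons of the GENCODE mouse annotation.

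Expected counts were rounded and tested in R 4.3.3 with edgeR 4.0.16 (quasi-likelihood, filterByExpr, TMM, no block), adjusted by Benjamini-Hochberg over 11809 genes at 0.05. Standard errors and 95% confidence intervals were derived from each gene's log2 fold change and F statistic. Means ± SD summarise the FPKM of 3 libraries. Depth was between 10760625 and 10987584 expected counts, the biological coefficient of variation was 0.0413, and replicates differed by more than counting noise (chi-square per degree of freedom of at least 1.68), so none was treated as a library deposited again, although the spread may still be technical. Alternatives were DESeq2 1.42.0, DESeq2 size factors, no count filter, a replicate block, limma 3.58.1 on log2(FPKM + pseudocount) with pseudocounts of 0.1, 1 and 5 (genes reaching 1 FPKM in 3 or more libraries, or no filter), a threshold of 0.01, and each library left out. Scripts were tested on simulated counts.

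The genes and lists were chosen with earlier results of these data known. Named genes are the 35 members, Aldh2, at most 8 called genes of smallest p in each wider list and 8 fixed regulators and transporters. Siah2, Hif3a, Plod1, Tfrc, Angptl4, Bnip3l, Kdm3a, Gys1, Fam162a and the markers Col1a1, Lyz2 and Adgre1 were named after their values were seen. A called gene of the wider hypoxia list, counted among its calls, is not reported here by name.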

Additional observations from a re-analysis of the deposited data

How the results depend on the processing

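Of 35 glycolysis and hypoxia genes, edgeR called 3, and the alternatives gave 2 or 3: the calls of Ndrg1 and P4ha1 held in all of them, and those of Hk2 and Car9 changed. Over 516 comparisons of a gene with an alternative, 10 lost a call (all Hk2), 1 gained a call (Car9) and none turned a called gene round, while 12 estimates of genes that did not pass changed sign. The number of all genes called, 1689, was 1119 in limma with a pseudocount of 0.1, 807 in limma without a filter and 1005 at a threshold of 0.01, and ran from 1175 to 1481 when a library was left out. The wider hypoxia list, with 14 calls of 48 tested, had 9 of 59 in DESeq2 and 7 of 48 at 0.01. In limma it had 9 of 41 with a pseudocount of 1 or 5, 8 of 41 with 0.1 and 5 of 59 without a filter. With a library left out it had from 7 to 12 of 48. Of all genes tested, DESeq2 called 1141 of 16832, limma with 0.1 called 1119 of 10701 and limma without a filter 807 of 16871. The cause of these differences was not tested, and limma with its filter tested 32 of the 35 genes. The median log2 fold change of the 35 genes ran from -0.061 to -0.022 with a library left out, the smallest size being without DKO replicate 2. Same-numbered libraries correlated at -0.0875, -0.194 and -0.155 in their deviations from the group means. Pairs of unlike number correlated at between -0.0344 and 0.213. The same-numbered values were thus the lowest, and none was the positive correlation that a shared batch would give. With the replicate block edgeR called 1553 genes, 3 of the 35 and 13 of the wider hypoxia list. The lower Hk2 share of hexokinase FPKM in DKO ran from -1.51 to -1.32 percentage points with a library left out, a step added after seeing the data. Depth limits Adm, Ankrd37, Aldoc, Egln3 and P4ha2, whose 95% intervals reach past 1.25-fold.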
